A study of Mus musculus with 8 samples.

Results

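The glands compared here had been injected once with small extracellular vesicles (sEVs) that AT3 cells, a mouse line of metastatic mammary adenocarcinoma, released in normoxia (sEV-NORM, 3 libraries), or with a vesicle preparation made the same way from medium that no cell had conditioned (sEV-CTRL, 3 libraries). They are 6 of the 8 whole mammary gland libraries of the series, chosen by their treatment label, and the other 2 carried sEVs released in hypoxia (sEV-HYP). Per the study's methods, the abdominal glands of female C57BL/6 mice were taken 6 weeks after the injection, and 2 to 3 animals made up a group. The age of the mice is not given in the sources used here, and an albino C57BL/6 substrain is listed among the mice obtained without being tied to these glands. All glands, those of the control group included, were injected. The question was which genes of the gland differed when the injected vesicles came from normoxic tumor cells. As 1 tumor line supplied the vesicles, and nothing says whether separate vesicle batches were used, a P value measures only the spread between these glands.

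sEVs are membrane vesicles of endosomal and plasma membrane origin that carry proteins, RNA and lipids between cells. The mammary gland is a tree of luminal and basal epithelium set in a fat pad with vessels, nerves, a lymph node and resident immune cells. Among these are connective tissue mast cells, which store histamine and a set of proteases (chymases, tryptases and a carboxypeptidase) in granules and lie along ducts and vessels. A whole gland pools all of these, and in such bulk RNA fewer cells of a type and less RNA per cell cannot be told apart.

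Total counts ranged from 18194996 to 21932810 with sEV-CTRL and from 20831117 to 24622569 with sEV-NORM, and 17858 genes had enough counts to be tested. Levels are given as CPM (counts scaled to library size with edgeR's TMM factors), and list levels as the mean log2 CPM of the tested members. The glands differed in the tissue they held. The skeletal muscle list (18 of 18 tested) had a level of 3.77, 7.91 and 5.45 in the sEV-CTRL glands and 6.32, -0.72 and 5.39 in the sEV-NORM glands, with sEV-NORM replicate 2 far below the others. That gland also had the highest neutrophil level, and sEV-CTRL replicate 2, with the most muscle, the lowest. The keratinocyte and skin list stood at 2.79 in sEV-NORM replicate 3 and between -0.80 and -0.47 in the other 5, and the milk list was highest in sEV-NORM replicate 1. Luminal keratin Krt19 (121, 153 and 184 CPM with sEV-CTRL and 150.3, 131 and 175 CPM with sEV-NORM) and adipocyte Fabp4 (2595 to 4237 CPM over the 6) were present in every gland, as the label mammary gland calls for. The first principal component of the 6 libraries held 51.9% of the variance of 1000 genes and ran from sEV-CTRL replicate 2 to sEV-NORM replicate 2, with the other glands of both groups between them.

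**Figure D1:**
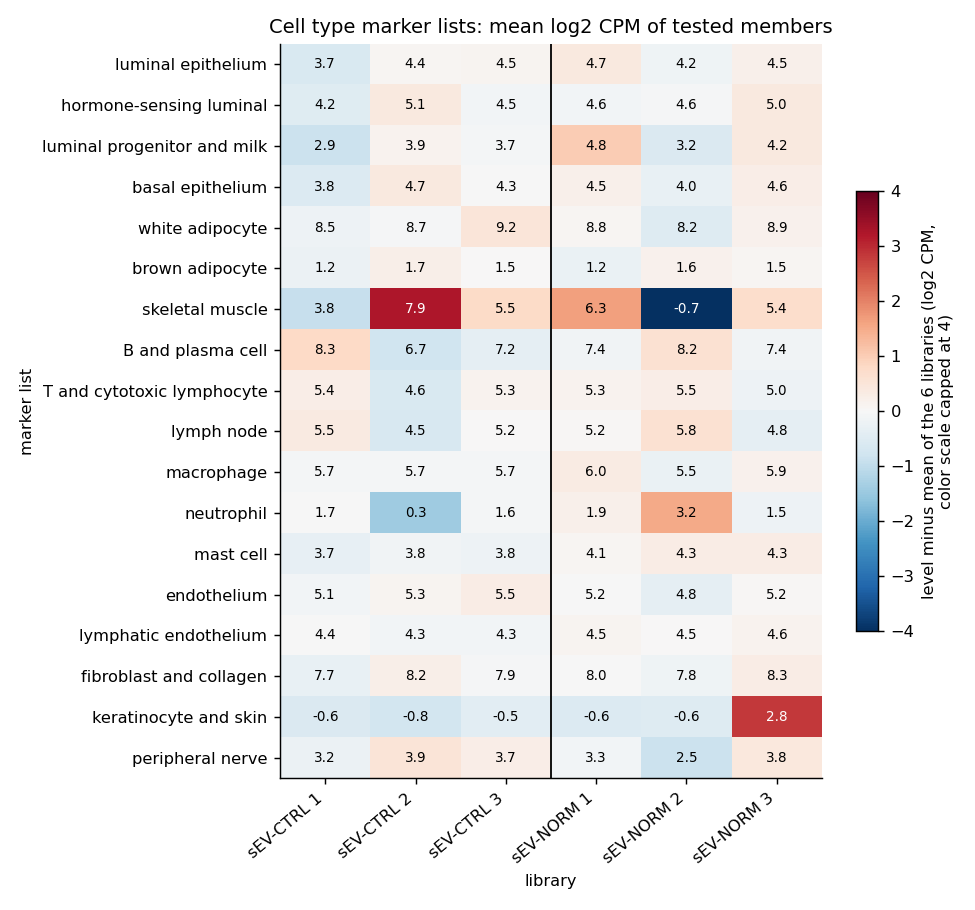
Mean log2 CPM of the tested members of each cell type marker list (rows) in the 6 libraries (columns), printed in each cell, with the color giving the difference from the mean of the 6 libraries. Skeletal muscle ranges from -0.72 to 7.91 and skin genes stand out in sEV-NORM replicate 3. The mast cell list separates the groups (3.66 to 3.83 against 4.06 to 4.27), and so does lymphatic endothelium, more narrowly (4.32 to 4.42 against 4.45 to 4.56).

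At an unadjusted P under 0.05, the threshold the study used, 290 genes differed between sEV-NORM and sEV-CTRL (1.62% of those tested, where 5.0% is the nominal share), 159 of them higher (0.89%) and 131 lower (0.734%) with sEV-NORM. After Benjamini-Hochberg adjustment, edgeR's quasi-likelihood F-test called 0 genes, and its smallest adjusted P was 0.9998. DESeq2, the tool the study used, called 2 genes at an adjusted P under 0.05 on all 8 libraries and 3 on the 6 compared. For 868 genes (4.86%), the 3 sEV-NORM glands all lay above (2.69%) or all below (2.17%) the 3 control glands. The median log2 fold change over all genes was -0.0008, and 49.8% of genes had a fitted value above 0. Below, a gene that rose, fell, passed or was called had an unadjusted P under 0.05 in the edgeR test, all other genes did not, and every gene had an edgeR adjusted P of 0.9998 or more. Log2 fold changes are of sEV-NORM against sEV-CTRL and are given with their standard error (SE). Without sEV-CTRL replicate 2, the gland with most muscle RNA, 1018 genes had a P under 0.05, and without sEV-CTRL replicate 1 568 did. Between 222 and 337 did when any of the other 4 glands was left out. These fits tested 17672 to 17774 genes, and counts of list members past the threshold without 1 gland stand beside these totals.

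**Figure D2:**
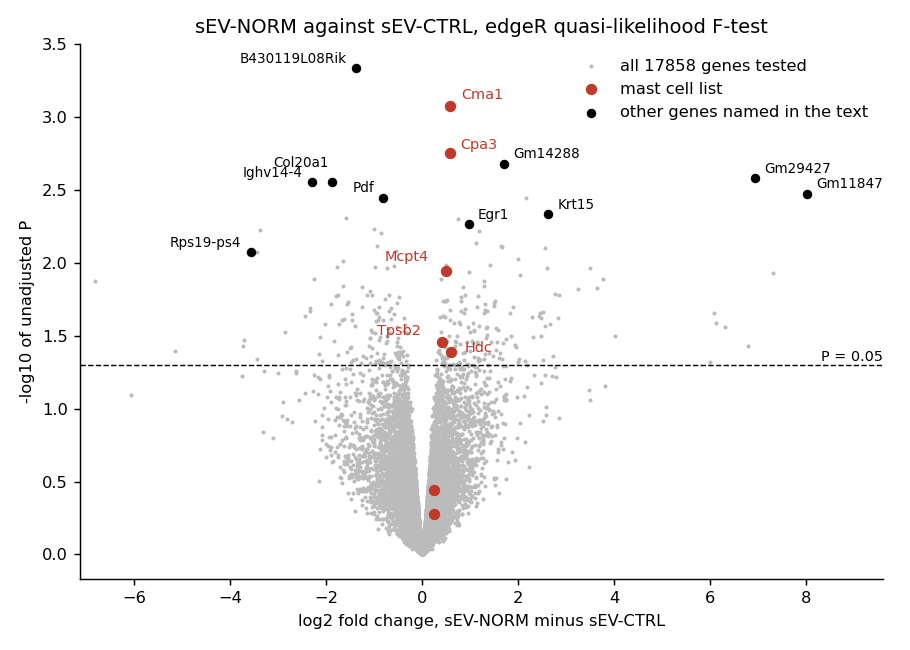
Log2 fold change of sEV-NORM against sEV-CTRL (horizontal) and -log10 of the unadjusted P (vertical) for every gene tested, with the mast cell list in red and a selection of other named genes in black. The 5 mast cell genes past the threshold lie above the dashed line at the threshold on the side of higher levels, and the fitted fold changes of Gm11847 and Gm29427, which had 0 counts in all control glands, depend on the prior count and are no measure of size.

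Among the gene lists, that of mast cells had the largest share of members past the threshold. Members and lists were chosen with earlier results of these data known, so its shares are a description and no independent test. Of the 7 genes of this list, all tested, 5 rose at P under 0.05 in the glands that received sEV-NORM, against 0.89% of all genes, and for the same 5 every sEV-NORM gland lay above every control gland, against 2.69% of all genes. All 7 had a fitted log2 fold change above 0, with a median of 0.50 beside -0.0008 over all genes. The summed level of the 7 was 218, 218 and 218 CPM in the control glands and 280.0, 333 and 333 CPM in the sEV-NORM glands, and 202 CPM in both sEV-HYP glands, so that the sEV-NORM glands lay above the other 5.

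Cma1, which encodes mast cell chymase, was at 56.6, 56.0 and 54.4 CPM with sEV-CTRL and 79.3, 83.0 and 87.3 CPM with sEV-NORM. These means of 55.7 ± 1.12 and 83.2 ± 4.01 CPM (SD, n = 3 each) differed by far more than the spread in either group. The log2 fold change was 0.58 (SE 0.12), with the second smallest P of all genes tested. Cpa3, the carboxypeptidase of mast cell granules, was at 63.6, 66.6 and 61.3 CPM with sEV-CTRL and 85.0, 98.5 and 101 CPM with sEV-NORM, and again no gland of one group reached the range of the other (log2 fold change 0.57, SE 0.13). Mcpt4, a chymase of connective tissue mast cells, stood at 74.0, 69.5 and 71.5 CPM with sEV-CTRL and 81.0, 116 and 108 CPM with sEV-NORM. Its lowest sEV-NORM gland, replicate 1, was nearer to the controls than to the other sEV-NORM glands (log2 fold change 0.50, SE 0.16). These 3 protease genes kept a P under 0.05 in each of the 14 alternative analyses. Tpsb2, a tryptase, had 16.8, 16.4 and 22.3 CPM with sEV-CTRL and 23.5, 24.4 and 25.9 CPM with sEV-NORM, with the highest control just under the lowest sEV-NORM gland (log2 fold change 0.41, SE 0.17). Hdc, histidine decarboxylase, which makes histamine, was low but separate, at 47, 48 and 40 counts with sEV-CTRL and 79, 85 and 69 counts with sEV-NORM (log2 fold change 0.59, SE 0.25).

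For the 3 protease genes whose call held in each alternative, the 250 bases before their RefSeq transcription starts (GRCm38.p6) are shown 5′ to 3′ on the strand of the gene. Capitals mark each GATAA or its reverse complement TTATC, the core that GATA factors such as Gata2 bind. Cma1 and Mcpt4 lie in a cluster of granule protease genes on chromosome 14, whereas Cpa3 lies on chromosome 3.
Cma1, chr14:55944676-55944925, minus strand: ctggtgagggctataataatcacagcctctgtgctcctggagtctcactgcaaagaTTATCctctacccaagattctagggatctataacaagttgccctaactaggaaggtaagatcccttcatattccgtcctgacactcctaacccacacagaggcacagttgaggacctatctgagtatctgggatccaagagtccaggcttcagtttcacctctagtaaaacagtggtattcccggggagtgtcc
Cpa3, chr3:20242182-20242431, minus strand: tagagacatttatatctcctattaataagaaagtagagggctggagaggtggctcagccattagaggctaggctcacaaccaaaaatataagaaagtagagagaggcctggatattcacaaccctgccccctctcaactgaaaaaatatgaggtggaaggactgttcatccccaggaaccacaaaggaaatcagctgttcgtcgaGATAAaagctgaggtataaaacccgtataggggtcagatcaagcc
Mcpt4, chr14:56062311-56062560, minus strand: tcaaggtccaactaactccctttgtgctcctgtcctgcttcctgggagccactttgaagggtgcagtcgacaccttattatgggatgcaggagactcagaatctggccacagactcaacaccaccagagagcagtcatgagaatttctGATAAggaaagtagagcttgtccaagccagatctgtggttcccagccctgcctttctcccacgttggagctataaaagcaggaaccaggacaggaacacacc
Each window held 1 match. Of the 6 list members with a window in the table, 4 had at least 1 match on either strand (Ms4a2 had 3, Hdc and Gata2 none), beside 23.0% of 27025 genes with a window of this length. A match is a description of the letters, and binding was not measured here. Whether matches go with the rise of a gene was not tested.

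The calls of Tpsb2 and Hdc were less stable. Both were lost with edgeR or DESeq2 on only the 6 libraries compared, with no filter on low counts and with skeletal muscle level as a covariate. In each of these settings 3 of the 7 members passed. Hdc was also lost with DESeq2 on all 8 libraries and with a block on replicate number. Without sEV-CTRL replicate 1, sEV-CTRL replicate 2, sEV-NORM replicate 1, 2 or 3, the log2 fold change of Tpsb2 was 0.32, 0.33, 0.44, 0.42 and 0.37, with P over 0.05 each time. That of Hdc lay between 0.51 and 0.64 when each of the 6 glands was left out, with P over 0.05 each time as well. The other members did not pass: Ms4a2, the beta chain of the high-affinity IgE receptor, had 22, 46 and 23 counts with sEV-CTRL and 30, 47 and 44 counts with sEV-NORM (log2 fold change 0.26, SE 0.39), and Gata2, a transcription factor of mast cells and their precursors, was at 3.76, 5.33 and 5.14 CPM with sEV-CTRL and 6.48, 4.96 and 5.49 CPM with sEV-NORM (log2 fold change 0.25, SE 0.26). The groups overlapped for both genes.

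In the sEV-HYP glands, Cma1 was at 53.2 and 52.6 CPM, Cpa3 at 59.3 and 65.5 CPM and Mcpt4 at 64.4 and 56.9 CPM, below the lowest sEV-NORM gland for each. Leaving out any 1 of the 6 glands kept all 7 members above 0, with a list median of 0.42 to 0.61 and 3 or 4 members past the threshold. Without sEV-NORM replicate 3, the gland with the most skin RNA, the median was 0.46, and with skeletal muscle level as a covariate it was 0.41, with the 3 proteases Cma1, Cpa3 and Mcpt4 still past the threshold. The fibroblast and collagen list, which marks the stroma that mast cells lie in, was at 7.71, 8.24 and 7.94 and 7.97, 7.82 and 8.30, and overlapped between the groups.

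**Figure D3:**
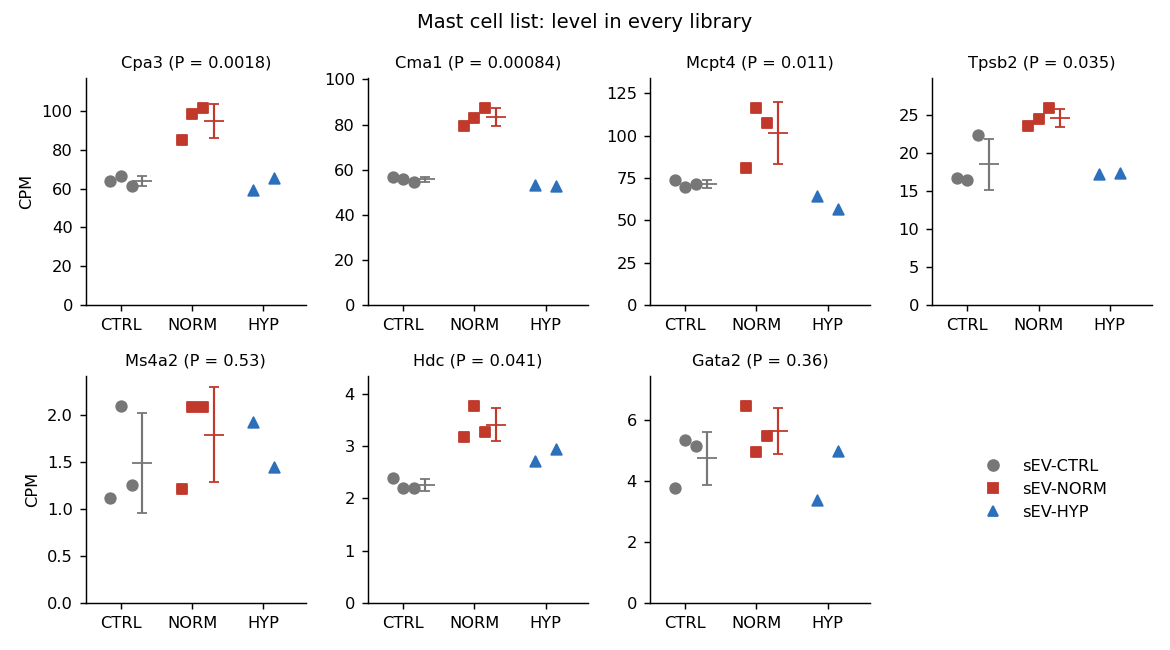
Level (CPM, linear axis from 0) of the 7 mast cell list genes in each library, with mean ± SD (n = 3) beside the sEV-CTRL and sEV-NORM points and no error bar for the 2 sEV-HYP libraries. For Cma1, Cpa3, Mcpt4, Tpsb2 and Hdc the 3 sEV-NORM glands lie above all 3 controls, while Ms4a2 and Gata2 overlap.

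Among other leukocyte genes, 3 of the 11 neutrophil genes tested rose at P under 0.05, against 0.89% of all genes, and 1 gland, sEV-NORM replicate 2, held their highest levels. All 11 had a fitted value above 0 (median 1.06). Retnlg, a resistin-like protein of neutrophils, was at 4.57, 1.87 and 4.27 CPM with sEV-CTRL and 8.45, 13.5 and 4.54 CPM with sEV-NORM, and the groups overlapped through sEV-NORM replicate 3, which lay just under the highest control (log2 fold change 1.31, SE 0.47). Ngp, a neutrophil granule protein, had 3.30, 0.502 and 0.985 CPM with sEV-CTRL and 4.42, 12.7 and 1.99 CPM with sEV-NORM, with sEV-NORM replicate 2 far above the rest (log2 fold change 2.00, SE 0.87). Camp, the cathelicidin antimicrobial peptide, had 3, 1 and 3 counts with sEV-CTRL and 12, 30 and 5 counts with sEV-NORM, at least 4.52-fold higher if each control is set to the floor of 3 counts. Without sEV-NORM replicate 2, none of the list passed, 6 of 10 tested were above 0, and the median was 0.07, with Retnlg at 0.87 and Ngp at 1.01. Without sEV-CTRL replicate 2, the gland with the lowest neutrophil level, none passed either (median 0.60, Retnlg 1.00, Ngp 1.56, Camp 2.07). Ngp also missed the threshold without sEV-CTRL replicate 3 (1.75) or sEV-NORM replicate 1 (2.20), and was at 3.07 without sEV-CTRL replicate 1. Camp had too few counts to be tested without sEV-NORM replicate 1 or 2, and 1 list member passed without the former. The summed neutrophil level was 93.2, 36.3 and 60.2 CPM with sEV-CTRL and 82.0, 192 and 59.7 CPM with sEV-NORM, and overlapped between the groups. With the muscle level as a covariate, the list median was 0.31.

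All 23 interferon response genes were fitted above 0 (median 0.53), yet 1 passed, where 0.89% of all genes rose. Neither of the following did. Ifit1, which restricts viral RNA, had 17.5, 54.6 and 16.0 CPM with sEV-CTRL and 74.5, 43.4 and 36.8 CPM with sEV-NORM (log2 fold change 0.81, SE 0.46), and Isg15, a ubiquitin-like modifier, had 3.56, 4.74 and 1.97 CPM with sEV-CTRL and 11.8, 4.08 and 3.31 CPM with sEV-NORM (log2 fold change 0.90, SE 0.51). For Ifit1 as for the list, sEV-CTRL replicate 2 lay within the sEV-NORM range and the other controls below it. By gland, the list level was 4.76, 5.82 and 4.58 with sEV-CTRL and 6.20, 5.44 and 5.20 with sEV-NORM. Without sEV-CTRL replicate 2, 19 of the 23 genes rose at P under 0.05 (median 1.13), where 615 of all 17701 genes tested did. Without sEV-NORM replicate 1 none of the 23 rose, 17 were above 0 and the median was 0.15. Without sEV-NORM replicate 3, the lowest sEV-NORM gland, 6 rose, where 145 of all 17730 genes tested did. With the muscle level as a covariate, 9 rose (median 0.84), where 310 of all 17858 genes tested did. Leaving out the first or the third control gland gave list medians of 0.32 and 0.27.

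Of the 14 macrophage genes 1 rose, against 0.89% of all genes: Fcgr1, the high-affinity IgG receptor, was at 9.19, 11.1 and 7.99 CPM with sEV-CTRL and 16.2, 11.3 and 12.9 CPM with sEV-NORM, with no overlap (log2 fold change 0.52, SE 0.21). The list median was 0.09, and Lyz2 (898 to 1276 CPM over the 6 glands) and Adgre1 had log2 fold changes of 0.08 and -0.08, neither past the threshold. The Fcgr1 call was lost without sEV-CTRL replicate 1 (0.48), sEV-CTRL replicate 3 (0.41), sEV-NORM replicate 1 (0.36) or sEV-NORM replicate 3 (0.55). All 7 MHC class II genes were fitted above 0 without any passing (median 0.15). None of the 15 B and plasma cell, 16 T and cytotoxic lymphocyte, 8 lymph node or 20 tested chemokine genes passed. Immunoglobulin light chain Igkc ran from 1179 to 6462 CPM in the control glands and from 1332 to 3296 CPM in the sEV-NORM glands. The glands with the highest Igkc in each group, sEV-CTRL replicate 1 and sEV-NORM replicate 2, also had the highest level of the B and plasma cell list.

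The immediate early list, genes that cells switch on within minutes of a stimulus, had 2 of 21 members past the threshold, the EGR transcription factors Egr1 and Egr2, both higher, against 0.89% of all genes. Egr1 was at 15.7, 18.1 and 26.6 CPM with sEV-CTRL and 45.5, 30.0 and 43.0 CPM with sEV-NORM, and all sEV-NORM glands lay above all controls (log2 fold change 0.97, SE 0.27). Egr2 was at 2.39, 2.23 and 2.96 CPM with sEV-CTRL and 4.06, 5.76 and 5.01 CPM with sEV-NORM, again without overlap (log2 fold change 0.97, SE 0.31). Both kept a P under 0.05 in each of the 14 alternative analyses. In the sEV-HYP glands, Egr1 was at 30.9 and 19.4 CPM, the lower of which lay within the control range, and Egr2 at 7.92 and 4.17 CPM, both above the controls. None of the other 19 passed. Fos, which is induced by the same stimuli, was at 11.2, 24.9 and 11.9 CPM with sEV-CTRL and 22.5, 17.5 and 21.9 CPM with sEV-NORM (log2 fold change 0.36, SE 0.31), and Dusp1, a MAP kinase phosphatase, at 25.3, 74.6 and 34.2 CPM with sEV-CTRL and 35.4, 24.0 and 35.1 CPM with sEV-NORM (log2 fold change -0.51, SE 0.40). The list median was 0.13, with 15 members above 0, and it was 0.04 with 11 above 0 without sEV-CTRL replicate 3, 0.07 without sEV-NORM replicate 1 and 0.21 with 18 above 0 without sEV-CTRL replicate 2.

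Most epithelial genes did not differ beyond the spread between glands. None of 15 luminal genes passed (12 above 0, median 0.28), nor did any of 12 basal genes (median 0.03). Leaving out sEV-CTRL replicate 1 gave a luminal median of 0.05, and leaving out sEV-NORM replicate 1 gave 0.07. With the muscle level as a covariate it was 0.39, and 4 luminal genes passed. In addition, 2 luminal genes passed when sEV-CTRL replicate 2 or 3 was left out, and 1 when sEV-NORM replicate 2 was. Of 10 tested hormone-sensing luminal genes 1 rose, against 0.89% of all genes: Foxa1, the pioneer factor that opens chromatin for the estrogen receptor, was at 35.8, 55.6 and 45.9 CPM with sEV-CTRL and 99.9, 47.6 and 72.5 CPM with sEV-NORM (log2 fold change 0.68, SE 0.27). Its sEV-NORM replicate 2 fell within the control range, and the call was lost without sEV-CTRL replicate 1 (0.51), sEV-CTRL replicate 3 (0.68), sEV-NORM replicate 1 (0.39) or sEV-NORM replicate 3 (0.69). Esr1, the estrogen receptor itself, did not pass (log2 fold change -0.01, SE 0.29). In the milk and progenitor list, the casein genes were highest in sEV-NORM replicate 1. Csn2 (beta casein) was at 0.254, 1.05 and 0.219 CPM with sEV-CTRL and 4.99, 0.0887 and 1.99 CPM with sEV-NORM (log2 fold change 2.18, SE 1.07), and no member of the list passed. Its median of 0.39 was 0.13 with 6 of 12 above 0 without sEV-NORM replicate 1, 0.25 without sEV-CTRL replicate 1, 0.63 with 4 genes higher past the threshold without sEV-NORM replicate 2, and 0.62 with 2 higher and 1 lower without sEV-CTRL replicate 2. With the muscle level as a covariate it was 0.75, and 6 genes rose.

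Krt15, a keratin of basal epithelial layers, was at 0.102, 0.365 and 0.547 CPM with sEV-CTRL and 1.21, 1.11 and 4.02 CPM with sEV-NORM. All sEV-NORM glands were above the controls (log2 fold change 2.63, SE 0.70), with the highest value in the gland that held skin genes, sEV-NORM replicate 3. Of the 7 tested members of the keratinocyte and skin list 3 passed the test as higher, against 0.89% of all genes: Krt77 (0, 0 and 5 counts with sEV-CTRL and 1, 0 and 400 counts with sEV-NORM), Krtdap (4, 5 and 3 counts with sEV-CTRL and 9, 1 and 202 counts with sEV-NORM) and Dsg1a, a desmosomal cadherin (9, 7 and 8 counts with sEV-CTRL and 12, 18 and 219 counts with sEV-NORM). For each, sEV-NORM replicate 3 held most of the counts of the 6 glands. Without it, Krt77 and Krtdap had too few counts to be tested and Dsg1a was at 0.66 and did not pass, whereas Krt15 had a log2 fold change of 1.77 and passed. Without any 1 control gland, Krt77 and Krtdap were past the threshold in none of the 3 fits, with log2 fold changes of 5.55, 5.50 and 10.09 and of 4.01, 4.12 and 3.90, and Dsg1a not without sEV-CTRL replicate 2 (3.09) or 3 (3.30). The list median was 2.79 and, without sEV-NORM replicate 3, -0.02 over the 4 genes then tested. Summed over the list, skin genes were at 11.3, 13.5 and 9.47 CPM in the controls and 12.9, 10.9 and 96.9 CPM with sEV-NORM.

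Most genes of energy metabolism were fitted lower with sEV-NORM, and few of them passed the test. In glycolysis, 17 of 19 genes were fitted below 0 (median -0.35, beside -0.0008 for all genes), and 2 fell at P under 0.05, against 0.734% of all genes. Hk2, hexokinase 2, which traps glucose in the cell, was at 34.5, 36.6 and 34.9 CPM with sEV-CTRL and 24.6, 20.4 and 30.6 CPM with sEV-NORM (log2 fold change -0.49, SE 0.17), with all sEV-NORM glands below the controls. Pgk1, phosphoglycerate kinase, was at 155, 136 and 164 CPM with sEV-CTRL and 128, 116 and 112 CPM with sEV-NORM (log2 fold change -0.35, SE 0.13), also without overlap. In the sEV-HYP glands both were above the control range, at 41.2 and 44.2 CPM for Hk2 and 170.3 and 172 CPM for Pgk1. The lowest fitted values were those of the muscle enzymes Pgam2 (-1.21), Eno3 (-1.15) and Pfkm (-0.96), none past the threshold. Their levels ran with the muscle list, at 3.86, 51.4 and 11.7 CPM with sEV-CTRL and 17.4, 0.443 and 11.2 CPM with sEV-NORM for Pgam2. With the muscle level as a covariate, the list median was -0.21 and Hk2 stood at -0.40, still past the threshold. Without sEV-CTRL replicate 3 the list median was -0.21 and 1 gene passed, and 1 gene passed without sEV-NORM replicate 3 as well. None passed without sEV-NORM replicate 2, while 4 did without sEV-CTRL replicate 1 and 5 without sEV-NORM replicate 1. The Hk2 call was lost without sEV-NORM replicate 1 (-0.48) or 2 (-0.36), and that of Pgk1 without sEV-CTRL replicate 1 (-0.36), sEV-CTRL replicate 3 (-0.29), sEV-NORM replicate 2 (-0.34) or sEV-NORM replicate 3 (-0.31).

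The nuclear genes of oxidative phosphorylation were mostly fitted below 0 as well. Of 58, 56 were fitted below 0 (median -0.24), and 6 had all sEV-NORM glands below the controls, against 2.17% of all genes. At P under 0.05, 1 fell, against 0.734% of all genes. That gene, Ndufa8, a complex I subunit, was at 53.5, 47.2 and 67.2 CPM with sEV-CTRL and 47.3, 37.1 and 42.4 CPM with sEV-NORM (log2 fold change -0.41, SE 0.17), and its highest sEV-NORM gland was level with the lowest control. Sdha, the catalytic subunit of complex II, was separate at 361, 353 and 406 CPM with sEV-CTRL and 335, 286 and 332 CPM with sEV-NORM but did not pass (log2 fold change -0.24, SE 0.15). Without sEV-CTRL replicate 3, the gland with the highest level of the list, the median was -0.09 and none passed (Ndufa8 -0.25). Without sEV-CTRL replicate 2, 19 of the 58 fell, where 403 of all 17701 genes tested did. Ndufa8 also missed the threshold without sEV-NORM replicate 2 (-0.32) or 3 (-0.41).

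In cholesterol biosynthesis, 18 of 20 genes were fitted below 0 (median -0.16) and 2 fell, against 0.734% of all genes. The median was -0.07 with 6 genes above 0 and 1 past the threshold without sEV-CTRL replicate 3, and -0.30 with 5 past it without sEV-CTRL replicate 2. The number past it was 1 when sEV-NORM replicate 1 or 3 was left out, and 3 when sEV-CTRL replicate 1 was. Sc5d, the desaturase of lathosterol near the end of the pathway, was at 166, 148 and 214 CPM with sEV-CTRL and 122, 109 and 120.5 CPM with sEV-NORM (log2 fold change -0.59, SE 0.18). All sEV-NORM glands were below the controls, the sEV-HYP glands were at 284 and 211 CPM, and the call held in each of the 14 alternatives. Fdft1, squalene synthase, was at 29.9, 25.1 and 43.2 CPM with sEV-CTRL and 24.2, 21.5 and 23.3 CPM with sEV-NORM (log2 fold change -0.51, SE 0.20), but without sEV-CTRL replicate 3 it was at -0.26, and without sEV-NORM replicate 1, 2 or 3 at -0.55, -0.46 and -0.52, with P over 0.05 in each. Fdft1 overlaps Ctsb on the opposite strand, and its reads are uncertain to that extent. All 16 fatty acid synthesis genes were fitted below 0 without any passing (median -0.18). Scd1, the stearoyl-CoA desaturase, had the lowest value (log2 fold change -0.53, SE 0.31). Without sEV-CTRL replicate 3 the median was -0.01 with 8 of 16 above 0, and without sEV-CTRL replicate 2 it was -0.52 with 3 genes past the threshold. It was -0.38 without sEV-NORM replicate 1 and -0.10 without sEV-NORM replicate 2.

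**Figure D4:**
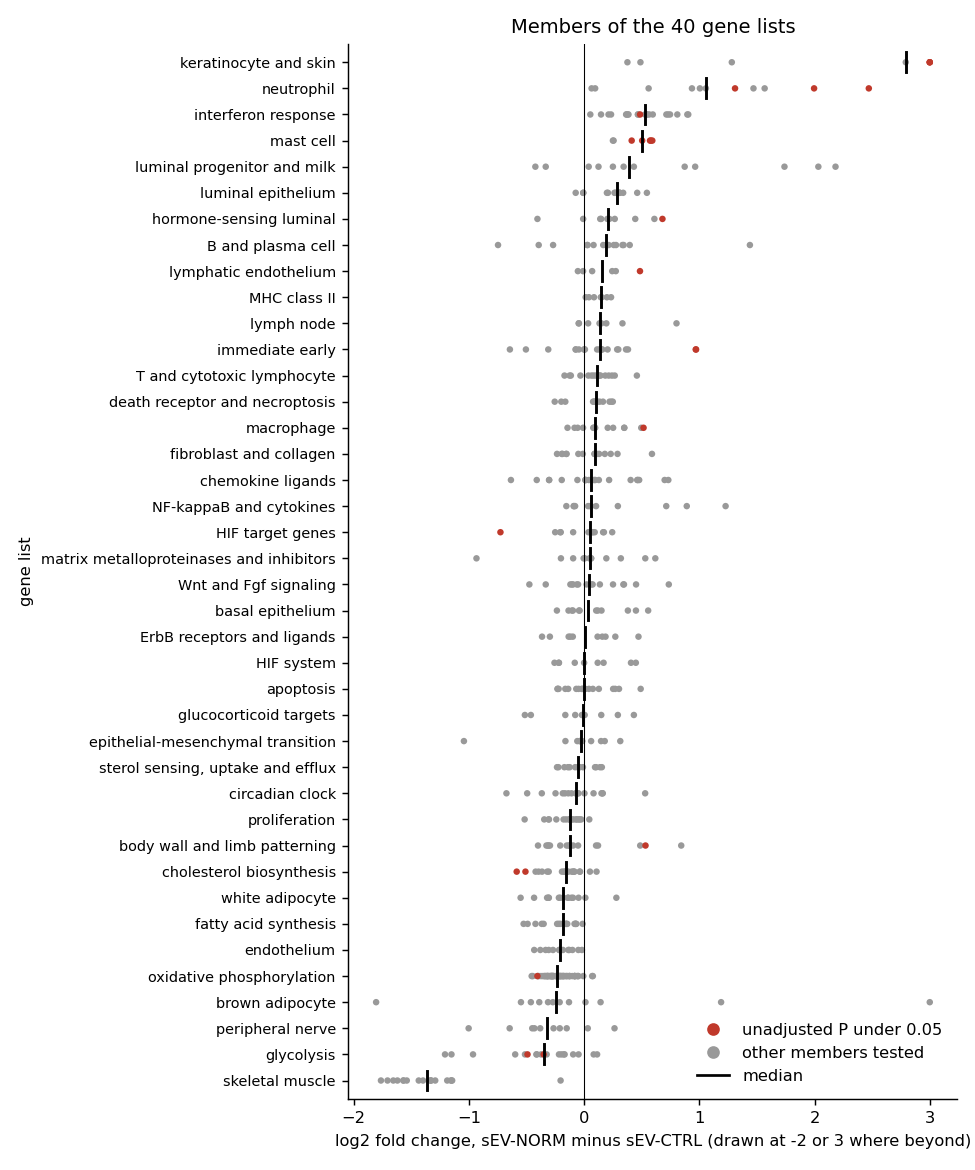
Log2 fold change of every tested member of the 40 lists, with the list median as a bar and members with an unadjusted P under 0.05 in red, and values beyond the axis drawn at -2 or 3. The mast cell list holds the most red points (5 of 7), interferon genes lie to the right of 0 with 1 red point, and muscle, glycolysis, oxidative phosphorylation and endothelium lie to the left.

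All 18 skeletal muscle genes were fitted lower (median -1.37), and none passed. In the fit this direction was lost without 1 gland, while sEV-NORM replicate 2 had by far the lowest level of the list (-0.72). Without sEV-CTRL replicate 2 the median was 0.01, 9 of 18 genes were above 0 and 2 passed as higher. The median was -0.79 without sEV-NORM replicate 2 and -2.38 without sEV-NORM replicate 1. Acta1, skeletal actin, was at 113, 1462 and 483 CPM with sEV-CTRL and 670.0, 1.91 and 259 CPM with sEV-NORM (log2 fold change -1.15, SE 1.37). Scn4a, the sodium channel of skeletal muscle, which is not in that list, fell (13.2, 18.1 and 14.3 CPM with sEV-CTRL and 10.1, 8.95 and 6.15 CPM with sEV-NORM, log2 fold change -0.85, SE 0.24), and with the muscle level as a covariate it was at -0.79 and still past the threshold. None of 15 white adipocyte genes (13 below 0, median -0.18) or 12 tested brown adipocyte genes passed. The white adipocyte median was 0.05 with 8 of 15 above 0 without sEV-CTRL replicate 3, -0.03 without sEV-NORM replicate 2, -0.31 without sEV-CTRL replicate 1, -0.28 without sEV-CTRL replicate 2 and -0.34 without sEV-NORM replicate 3. Ucp1, the uncoupling protein of brown fat, had 4, 0 and 0 counts with sEV-CTRL and 1, 46 and 7 counts with sEV-NORM, nearly all in 1 gland (log2 fold change 3.47, SE 1.72). The peripheral nerve list had a median of -0.32 with none passing. All 14 endothelial genes were fitted below 0 (median -0.21), from Cldn5 (log2 fold change -0.43, SE 0.30) to Pecam1 (log2 fold change -0.02, SE 0.14), and none passed. The median was -0.06 without sEV-NORM replicate 2 and -0.09 without sEV-CTRL replicate 3, with 2 genes above 0 each time. Of 6 lymphatic endothelium genes 1 rose, against 0.89% of all genes: Lyve1, the hyaluronan receptor of lymphatic vessels and of some macrophages, was at 87.0, 86.5 and 62.6 CPM with sEV-CTRL and 133, 108 and 90.3 CPM with sEV-NORM (log2 fold change 0.49, SE 0.20). The call was lost without sEV-CTRL replicate 3 (0.35), sEV-NORM replicate 1 (0.33) or sEV-NORM replicate 2 (0.50). Prox1, the master factor of lymphatic endothelium, was at 16.2, 15.3 and 16.7 CPM with sEV-CTRL and 12.5, 22.6 and 15.6 CPM with sEV-NORM (log2 fold change 0.07, SE 0.22).

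Of 12 hypoxia-inducible factor (HIF) targets outside glycolysis 1 fell, against 0.734% of all genes: Ddit4, an inhibitor of mTORC1, was at 13.6, 23.6 and 12.2 CPM with sEV-CTRL and 8.29, 8.64 and 13.0 CPM with sEV-NORM (log2 fold change -0.73, SE 0.29). Its highest sEV-NORM gland lay within the control range, and without sEV-CTRL replicate 2 it was at -0.37, without sEV-NORM replicate 1 at -0.61 and without sEV-NORM replicate 2 at -0.63, none past the threshold. Vegfa, the vessel growth factor, did not pass (log2 fold change -0.25, SE 0.24). None of 9 HIF system genes passed, and Hif1a was at 366, 428 and 252 CPM with sEV-CTRL and 357, 645 and 386 CPM with sEV-NORM (log2 fold change 0.41, SE 0.27). In the list of body wall and limb patterning factors, 1 of 17 tested rose, against 0.89% of all genes: Tbx18, a T-box factor of mesenchyme, at 5.43, 9.17 and 7.55 CPM with sEV-CTRL and 9.61, 10.4 and 12.1 CPM with sEV-NORM (log2 fold change 0.53, SE 0.23), a call lost without sEV-CTRL replicate 1 (0.33), sEV-CTRL replicate 3 (0.55) or any of sEV-NORM replicates 1, 2 and 3 (0.60, 0.55 and 0.44).

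Over all lists, 24 of 592 tested entries passed (4.05%, beside 1.62% of all genes), 18 higher and 6 lower, in 13 of the 40 lists. As lists and members were chosen with earlier results of these data known, the higher share is a description and no test. The 27 lists without a passing member include proliferation (17 of 18 fitted below 0, median -0.12), apoptosis (median -0.001), death receptor and necroptosis (0.11), epithelial-mesenchymal transition (-0.03), sterol sensing, uptake and efflux (-0.06), ErbB receptors and ligands (0.01), Wnt and Fgf signaling (0.04), matrix metalloproteinases and inhibitors (0.05), NF-kappaB and cytokines (0.06), chemokine ligands (0.06), fibroblast and collagen (0.09), circadian clock (-0.07) and glucocorticoid targets (-0.01). The proliferation level was 4.99, 3.29 and 3.42 with sEV-CTRL and 3.83, 4.18 and 3.91 with sEV-NORM. Only sEV-CTRL replicate 1 lay above the sEV-NORM glands, and the other controls lay below all of them.

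Over all genes tested, listed or not, 20 kept a P under 0.05 and their direction in the main test and all 14 alternatives. Among them were the list members Cma1, Cpa3, Mcpt4, Egr1, Egr2 and Sc5d described above, and also Scn4a. The higher ones also include Cdk5rap1, which modifies mitochondrial transfer RNAs (6.14, 6.75 and 7.33 CPM with sEV-CTRL and 9.97, 10.9 and 12.9 CPM with sEV-NORM, log2 fold change 0.74, SE 0.20), and Abhd2, a lipid hydrolase (94.5, 105 and 91.0 CPM with sEV-CTRL and 123, 131 and 129 CPM with sEV-NORM, log2 fold change 0.40, SE 0.13). Zc3h6, a zinc finger gene, rose by 0.50 on the log2 scale (SE 0.16), but it overlaps Gm14027 on the same strand. Every sEV-NORM gland was above every control for these 3. Among the lower ones was Rasl12, a small GTPase (19.4, 21.1 and 20.1 CPM with sEV-CTRL and 13.2, 14.2 and 14.1 CPM with sEV-NORM, log2 fold change -0.55, SE 0.16). Magix, a PDZ domain gene on the X chromosome, was at 25, 35 and 57 counts with sEV-CTRL and 15, 16 and 14 counts with sEV-NORM (log2 fold change -1.59, SE 0.43). Pdf, the mitochondrial peptide deformylase, had one of the 10 smallest P values (8.38, 8.30 and 7.61 CPM with sEV-CTRL and 5.07, 4.96 and 3.74 CPM with sEV-NORM, log2 fold change -0.82, SE 0.21), but overlaps Cog8 on the same strand, and counts of the pair may be shared. All 3 were without overlap between the groups. Rasl12 overlaps Slc51b on the opposite strand, as Tbx18 does D030062O11Rik and B430319F04Rik does Ampd3. The rest of the 20 include the noncoding RNA B430119L08Rik, Gm14288, Serpinb10 (which overlaps Serpinb2 on the same strand), Gm10268, Gm7666 (which overlaps Fyb) and Hmgb1-ps3.

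The smallest P of all belonged to B430119L08Rik (chromosome 12, 103895897 to 103898784), a noncoding RNA annotated antisense to Serpina1c. It had 197, 212 and 187 counts with sEV-CTRL and 79, 73 and 107 counts with sEV-NORM, and 155 and 195 counts in the sEV-HYP glands (log2 fold change -1.38, SE 0.26). All sEV-NORM glands were below the rest. DESeq2 gave it an adjusted P of 0.0314 on all 8 libraries and 0.0294 on the 6 compared. As it is not stated whether the strand was used in counting, its reads and those of Serpina1c cannot be told apart. Gm14288 (chromosome 2, 175789357 to 175801093), a zinc finger gene of a family of near-identical copies, was at 5.49, 3.33 and 10.9 CPM with sEV-CTRL and 22.8, 20.6 and 20.5 CPM with sEV-NORM (log2 fold change 1.70, SE 0.40), without overlap, and at 29.6 and 16.2 CPM in the sEV-HYP glands. Its DESeq2 adjusted P was 0.0683 on all 8 libraries and 0.0294 on 6. Gm11847 (chromosome 4, 12232833 to 12233951), a processed pseudogene, had 0, 0 and 0 counts with sEV-CTRL and 42, 17 and 46 counts with sEV-NORM, at least 10.2-fold higher if each control is set to the floor of 3 counts (DESeq2 adjusted P of 0.0314 on 8 and 0.00276 on 6 libraries). The sEV-HYP glands split, with 21 counts in replicate 1 and 0 in replicate 2. Reads of a parent gene can be assigned to a pseudogene copy, so Gm14288 and Gm11847 are uncertain.

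**Figure D5:**
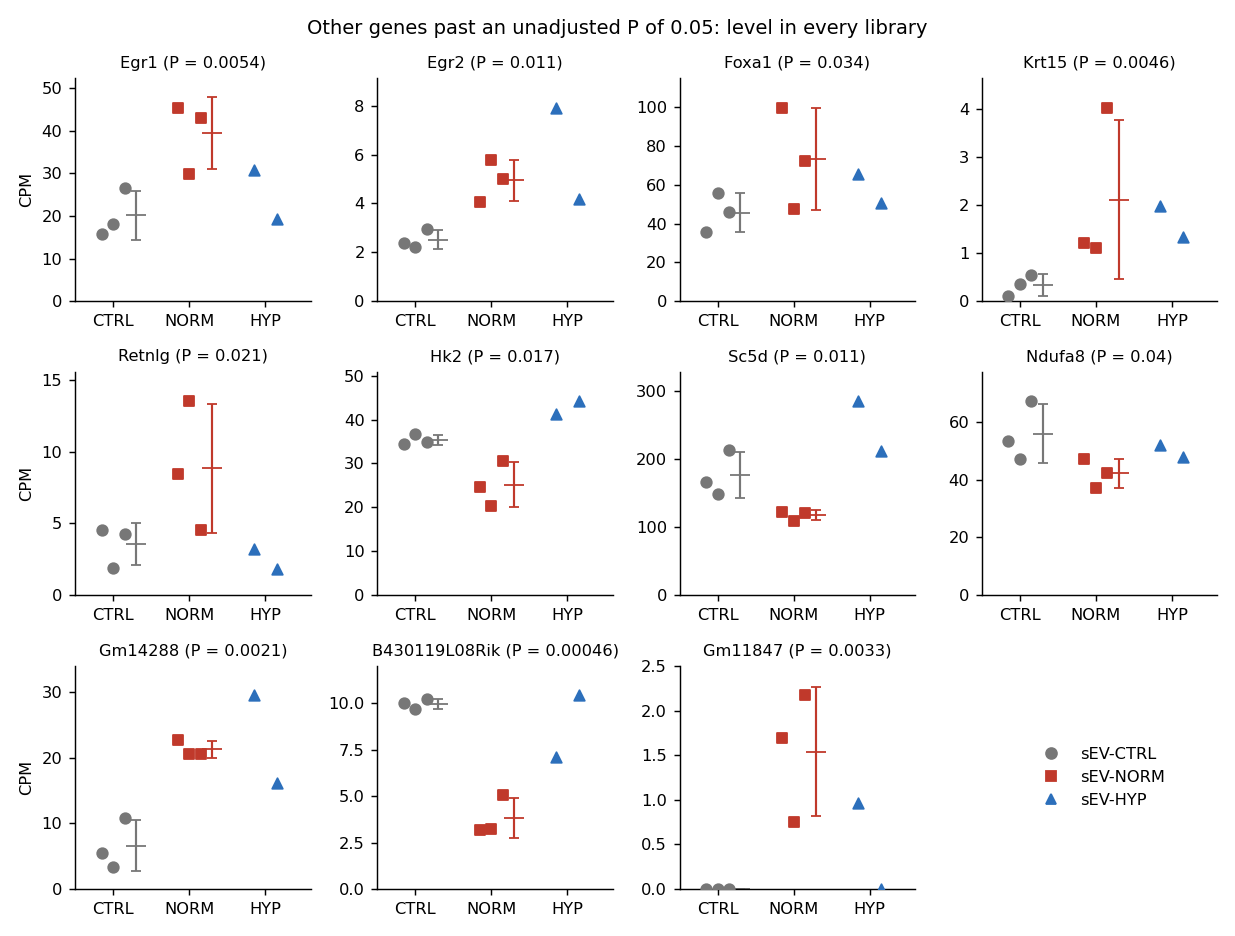
Level (CPM, linear axes from 0) of 11 other genes past an unadjusted P of 0.05 in each library, with mean ± SD (n = 3) beside the sEV-CTRL and sEV-NORM points. Egr1, Egr2, Krt15, Gm14288 and Gm11847 are above all controls with sEV-NORM and Hk2, Sc5d and B430119L08Rik below, while Foxa1, Retnlg and Ndufa8 overlap.

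The other genes with the largest differences among those without overlap were mostly predicted genes, pseudogenes and immunoglobulin segments at low counts. Higher were Olfm4, a secreted glycoprotein (1, 8 and 0 counts with sEV-CTRL and 11, 38 and 11 counts with sEV-NORM, log2 fold change 2.56, SE 0.97), Apol7b, an apolipoprotein L gene (21, 12 and 9 counts with sEV-CTRL and 34, 77 and 38 counts with sEV-NORM, log2 fold change 1.63, SE 0.48), Zfp941, Gm1123, Gm37678, Gm44135, Gm43314 and B430319F04Rik, the last 6 with log2 fold changes of 1.35 to 1.67. Of these, Apol7b, Gm37678 and Gm44135 kept a P under 0.05 without each gland in turn. Olfm4 did not without sEV-CTRL replicate 1 (2.15), sEV-CTRL replicate 3 (2.03) or sEV-NORM replicate 2 (1.69), and was at 4.79 without sEV-CTRL replicate 2. Zfp941 did not without sEV-CTRL replicate 1 (1.48), sEV-CTRL replicate 2 (1.10), sEV-NORM replicate 1 (1.43) or sEV-NORM replicate 3 (1.14), and Gm1123 did not without sEV-CTRL replicate 1 (1.54), sEV-CTRL replicate 2 (1.21) or sEV-NORM replicate 2 (1.17). Gm43314 did not without sEV-CTRL replicate 2 (1.27), sEV-CTRL replicate 3 (0.98), sEV-NORM replicate 2 (1.28) or sEV-NORM replicate 3 (1.35), and B430319F04Rik did not without sEV-CTRL replicate 3 (1.02), sEV-NORM replicate 1 (1.29) or sEV-NORM replicate 2 (1.35). Olfm4, Gm37678 and Zfp941 overlap another gene on the same strand (Gm6999, Qrich1 and Gm45785). Gm29427, with 0 counts in each control and 10, 10 and 28 with sEV-NORM, was at least 4.79-fold higher by the same floor and past the threshold. It overlaps Pfkfb2 and C4bp-ps1 on the same strand, and without sEV-NORM replicate 3 it had too few counts to be tested. Trav9-1, a T cell receptor segment, had 2, 5 and 4 counts with sEV-CTRL and 25, 17 and 16 counts with sEV-NORM, one of the 10 smallest P values. Lower were Ighv14-4 (46, 116 and 147 counts with sEV-CTRL and 13, 41 and 18 counts with sEV-NORM, log2 fold change -2.29, SE 0.56), Igkv6-20 and Igkv4-50, all variable segments of antibody genes. Igkv6-20 was past the threshold with a log2 fold change of -2.25 and not without sEV-CTRL replicate 3 (-0.79), and Igkv4-50 with -1.63 and not without sEV-CTRL replicate 1 (-0.68), sEV-NORM replicate 1 (-1.41) or sEV-NORM replicate 3 (-1.50). Of 160 variable heavy and light chain segments tested, 16 had a P under 0.05, 9 higher and 7 lower, beside 1.62% of all genes.

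Lower protein-coding genes were Col20a1, a fibril-associated collagen that overlaps BX649560.1 on the same strand (21, 31 and 34 counts with sEV-CTRL and 12, 7 and 8 counts with sEV-NORM, log2 fold change -1.87, SE 0.46), Ankrd1, an ankyrin repeat factor of muscle (19, 24 and 25 counts with sEV-CTRL and 9, 11 and 1 counts with sEV-NORM, log2 fold change -1.90, SE 0.67), Shisa4 and Rundc3a. Ankrd1 was past the threshold except without sEV-CTRL replicate 3 (-1.75). Shisa4 (-1.25) lost its call without sEV-CTRL replicate 2 (-0.72), the gland with most muscle RNA, and Rundc3a (-1.57) without sEV-CTRL replicate 3 (-1.02), sEV-NORM replicate 2 (-1.50) or sEV-NORM replicate 3 (-1.42). Rps19-ps4, a pseudogene of a ribosomal protein gene, had 38, 15 and 23 counts with sEV-CTRL and 0, 7 and 0 counts with sEV-NORM (log2 fold change -3.57, SE 1.07), and without sEV-NORM replicate 2 no sEV-NORM gland held a count of it. Gm12286, a processed pseudogene (-1.26), missed the threshold without sEV-CTRL replicate 2 (-0.995), sEV-CTRL replicate 3 (-1.14), sEV-NORM replicate 2 (-1.19) or sEV-NORM replicate 3 (-1.24). Gm49405 (-1.56), which overlaps Nudt8 and Doc2g on the same strand, missed it without sEV-CTRL replicate 1 (-1.17), sEV-CTRL replicate 3 (-1.70), sEV-NORM replicate 1 (-1.30) or sEV-NORM replicate 3 (-1.18), and was at -2.57 without sEV-NORM replicate 2. By annotation, 195 of the 290 genes were protein-coding (103 higher, 92 lower, 1.32% of those tested), 27 were processed pseudogenes (9 higher, 18 lower, 3.40% of 793) and 23 were unclassified transcripts (20 higher, 3 lower, 4.50% of 511), beside 1.62% of all genes.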

How the data were processed

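Polyadenylated RNA of 8 whole mammary glands was sequenced. The authors aligned reads to mm10 with STAR and estimated counts per gene with RSEM 1.2.12 and Ensembl GRCm38 gene models. The deposited file holds these as whole-number counts, not normalized, and how the estimates were rounded is not stated. Of 51789 gene IDs, 51596 were matched to a symbol in GENCODE M21, and IDs without one held 0.0389% of the counts.

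Genes were kept with edgeR's filterByExpr (minimum count 10), and 1 quasi-likelihood model of 3 groups over 8 libraries was fitted with TMM scaling (R 4.3.3, edgeR 4.0.16). A call is an unadjusted P under 0.05, with Benjamini-Hochberg values over all 17858 genes. SE is the fold change divided by the root of F. CPM on the log2 scale has a prior count of 2. DESeq2 1.42.0, other scaling and filters, 6 libraries, a muscle covariate, a block on replicate number and leaving out each library were the alternatives. The code was tested on simulated data.

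Named genes are the 12 highest and 12 lowest fold changes among calls without overlap with a mean of at least 20 counts in the higher group, the 10 smallest P values and list members past the threshold, while other members were chosen as examples after their values were seen. The members and lists were chosen with earlier results of these data known. Some genes past the threshold are not reported here.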

Additional observations from a re-analysis of the deposited data

How the results depend on the processing

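The count of 290 genes at an unadjusted P under 0.05 was 287 with DESeq2's size factors, 349 with DESeq2 on all 8 libraries, 303 with DESeq2 and 213 with edgeR on the 6 compared, and 218 with at least 10 counts in every library. It was 533 with no filter on low counts, where more genes are tested, and 452 (310 higher, 142 lower) with the skeletal muscle level as a covariate, and the cause of the latter was not tested. Leaving out each library gave 222 to 1018 genes, with 568 (270 higher, 298 lower) without sEV-CTRL replicate 1, 1018 (615 higher, 403 lower) without sEV-CTRL replicate 2 and 222 (138 higher, 84 lower) without sEV-NORM replicate 2, beside 159 higher and 131 lower with all libraries. Adjusted calls were 0 in edgeR in each of these settings, and 2 and 3 in DESeq2 on 8 and 6 libraries. Genes without overlap numbered 868, 878 with size factors, 1278 without a filter, 661 with at least 10 counts in every library, and 1789 to 4072 when 1 library was left out, which makes separation easier by construction. Of the 61 named genes past the threshold, 2 to 22 lost their call in any 1 setting other than the minimum of 10 counts, under which 38 were tested and all 38 kept it, and none reversed. With a replicate block the count was 252 genes (144 higher, 108 lower, 0 adjusted). The deviations of same-numbered glands correlated at -0.285, -0.416 and -0.013, and no gland correlated best with its own number. The labels give no pairing by number. As the glands also differed in muscle, these correlations cannot show whether glands of the same number shared a batch. The biological coefficient of variation between glands was 0.297, and the part of depth was not tested.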

Other observations

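Further mast cell genes outside the list and the gene of a mast cell growth factor, chosen after the values of the list were seen, were examined in the same fit. Mrgprb1, a Mas-related receptor gene, passed the unadjusted threshold, at 15.4, 20.1 and 15.3 CPM with sEV-CTRL and 19.6, 24.6 and 24.1 CPM with sEV-NORM (log2 fold change 0.43, SE 0.19). Its call was lost without sEV-CTRL replicate 1 (0.34), sEV-CTRL replicate 3 (0.36), sEV-NORM replicate 2 (0.37) or sEV-NORM replicate 3 (0.38). It was also lost with DESeq2's size factors, in both DESeq2 fits and with edgeR on the 6 libraries compared. The same held with no filter on low counts and with the muscle covariate. Mrgprb2, the receptor through which cationic peptides and drugs activate mast cells, was at 5.54, 5.24 and 4.82 CPM with sEV-CTRL and 6.39, 7.09 and 7.38 CPM with sEV-NORM, with all sEV-NORM glands above the controls but no call (log2 fold change 0.42, SE 0.20). The same, separate but not called, held for Il1rl1, the receptor of interleukin 33 (14.7, 16.1 and 11.9 CPM with sEV-CTRL and 19.1, 16.3 and 19.5 CPM with sEV-NORM, log2 fold change 0.36, SE 0.18), and Slc18a2, the transporter that loads histamine into granules (30, 49 and 35 counts with sEV-CTRL and 57, 66 and 66 counts with sEV-NORM, log2 fold change 0.55, SE 0.30). Fcer1a, the alpha chain of the IgE receptor, had 155, 84 and 197 counts with sEV-CTRL and 295, 283 and 149 counts with sEV-NORM (log2 fold change 0.49, SE 0.42), and Kitl, which encodes the ligand of the mast cell growth receptor Kit, was at 113, 248 and 118 CPM with sEV-CTRL and 138, 147 and 189.6 CPM with sEV-NORM (log2 fold change -0.01, SE 0.30), and neither passed. These values come from the same glands as those of the list.

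Gm14288 lies among similar zinc finger genes on chromosome 2 that share sequence with it, so that reads can be split among them. Its neighbor Gm14440 ran the other way, at 22.4, 27.2 and 10.9 CPM with sEV-CTRL and 0, 0.709 and 5.54 CPM with sEV-NORM, with every sEV-NORM gland below every control, and at 0.0458 and 17.8 CPM in the sEV-HYP glands (log2 fold change -3.30, not past the threshold). Gm14438 was at 1.93, 0.274 and 0.492 CPM with sEV-CTRL and 0.402, 0 and 0 CPM with sEV-NORM (log2 fold change -2.63, SE 1.21) and Gm14434 at 5.74, 4.47 and 0 CPM with sEV-CTRL and 0, 0.488 and 1.94 CPM with sEV-NORM (log2 fold change -2.09, SE 1.38), neither past the threshold. A call on 1 of these genes is uncertain.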
